A study of Drosophila melanogaster with 3 samples.

Results

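Weak but repeated ChIP-seq peak regions of tagged Stripe were examined. In these genome regions, peaks of 2 libraries met that were each too irreproducible for the authors' per-library threshold, away from the conservative joint list. The remaining library had a more reproducible peak at 8 of the regions. Whether each region is a binding site of Stripe was not tested. Of the 64 regions, 32 did pass the reproducibility threshold of another joint list, the longest that the authors made from the 3 libraries. ChIP-seq (chromatin immunoprecipitation followed by sequencing) had been run on whole Drosophila melanogaster embryos of strain sr-GFP, aged 8 to 24 hours. The flies are transgenic and express Stripe (gene sr) as an eGFP fusion, and the labels describe a precipitation with an antibody against GFP, although sr is what they enter as the antibody. The series holds 3 libraries, labelled as biological replicates 1, 2 and 3 of 1 group, so no genotype or stage was compared. The embryos were not sorted, and the cells in which the tagged protein was bound are not known from these files.

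The regions were selected on measured values. Each library's ranked peak list gives a global irreproducible discovery rate (IDR), which is low where a peak ranks consistently high in 2 sets of reads. Peaks with an IDR from 0.01 to 0.05 were taken, with the value 0.01 itself left to the thresholded peaks. A stretch of 100 bp to either side of each summit was taken, and stretches that touched were merged over the libraries. Regions with summits of 2 or 3 libraries were kept where their centre lay more than 1000 bp from every summit of the conservative list, the list that the authors name so among the joint lists. This left 64 of 3483 merged weak regions. All 64 had weak summits of exactly 2 libraries. The IDR, the number of libraries, the signal and the distance to the conservative list follow from this choice and are given as a description.

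Stripe belongs to the EGR (early growth response) family of zinc finger transcription factors and directs the development of tendon cells, the epidermal cells to which embryonic muscles attach. Proteins of this family bind a GC-rich recognition sequence in DNA. A tendon cell receives an EGF-type ligand through its EGF receptor, keeps sr expressed and sends out cues that guide growing muscles. In whole embryos, fewer bound cells and less binding per cell cannot be told apart.

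The recognition core searched here was GTGGGCG or GTGGGTG, on either strand, within 100 bp of the region centre, which is the mean position of the best weak summit of each library. Of the 63 weak regions on the chromosome arms, 16 held it. The remaining region lay on an unplaced sequence with no annotation used here and had no motif search. The sequences of 8 regions with the core within 25 bp of the centre are shown, because they let the core be read beside the summit. They are all such regions among the intronic and intergenic ones eligible for printing, in order of that library-wise signal percentile, and each is the dm6 plus strand from 50 bp before to 50 bp after the region centre. Capitals mark the core, and CGCCCAC or CACCCAC is the core on the minus strand. They are named by the gene of the nearest transcription start site (TSS): Fim (chrX:17298349-17298449), if (chrX:16768605-16768705), Rh5 (chr2L:12005893-12005993), Delta (chr3R:19316209-19316309), Glut3 (chr3R:16791581-16791681), Rich (chr3L:22206185-22206285), lace (chr2L:15496775-15496875) and tmod (chr3R:30552914-30553014).
Fim: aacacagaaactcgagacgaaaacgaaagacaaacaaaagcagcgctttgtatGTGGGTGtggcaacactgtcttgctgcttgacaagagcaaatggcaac
if: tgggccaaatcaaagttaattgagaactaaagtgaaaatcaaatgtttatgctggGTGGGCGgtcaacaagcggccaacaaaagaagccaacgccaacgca
Rh5: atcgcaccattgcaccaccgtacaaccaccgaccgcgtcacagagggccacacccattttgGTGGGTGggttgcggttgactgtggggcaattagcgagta
Delta: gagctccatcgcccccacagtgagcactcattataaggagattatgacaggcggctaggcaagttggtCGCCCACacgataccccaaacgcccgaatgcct
Glut3: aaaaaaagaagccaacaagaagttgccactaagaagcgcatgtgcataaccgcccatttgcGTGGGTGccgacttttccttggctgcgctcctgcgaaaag
Rich: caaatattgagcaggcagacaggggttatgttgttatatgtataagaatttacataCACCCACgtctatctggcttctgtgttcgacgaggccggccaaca
lace: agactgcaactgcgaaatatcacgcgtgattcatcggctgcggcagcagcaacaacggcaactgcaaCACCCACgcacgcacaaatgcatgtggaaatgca
tmod: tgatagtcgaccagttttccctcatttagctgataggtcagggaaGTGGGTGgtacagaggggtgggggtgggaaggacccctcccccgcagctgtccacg

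For contrast, the 4 eligible regions without the core that had the highest mean signal percentile, taken among the weak peaks of each library, are shown in the same way, with no capitals. They are Kdm2 (chr3R:9057670-9057770), CG3764 (chr3L:17004356-17004456), Or67d (chr3L:10341863-10341963) and lute (chr3R:17383767-17383867).
Kdm2: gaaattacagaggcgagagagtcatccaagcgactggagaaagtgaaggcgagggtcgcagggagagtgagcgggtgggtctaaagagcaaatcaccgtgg
CG3764: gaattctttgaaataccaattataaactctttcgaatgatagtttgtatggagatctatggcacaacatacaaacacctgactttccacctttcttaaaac
Or67d: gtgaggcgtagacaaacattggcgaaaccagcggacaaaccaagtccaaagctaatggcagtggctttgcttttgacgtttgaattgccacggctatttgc
lute: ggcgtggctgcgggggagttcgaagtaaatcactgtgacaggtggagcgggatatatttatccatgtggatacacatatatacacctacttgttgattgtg

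In the first set, the core lay within 9 bp of the centre in tmod, Fim, if and Rich, and 21 bp away in Delta. In tmod it lay 2 bp from the centre and was followed by a G-rich stretch. The form ending in TG was nearest the centre in 6 of the 8 windows, those of Fim, Rh5, Glut3, Rich, lace and tmod, and the form ending in CG in if and Delta.

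Few of the weak peaks met this way. Replicate 1 had 1519 peaks in the IDR range, replicate 2 had 867 and replicate 3 had 1453, and the weak regions took in 3.23%, 4.84% and 2.55% of them. Of the merged weak regions, 3176 had a summit of 1 library, 295 of 2 and 12 of 3. Among those of 1 library, 1694 (53.3%) lay more than 1000 bp from the conservative list, against 64 (21.7%) of those of 2 and 0 of those of 3 libraries. Weak peaks that met in several libraries thus mostly lay within 1000 bp of a conservative summit. That distance has no lower bound, so it can include the same place as the conservative peak. Replicates 1 and 2 formed 27 of the 64 pairs, replicates 1 and 3 formed 22, and replicates 2 and 3 formed 15. The summits of a pair lay a median of 47 bp apart, from 1 bp at Exn to 305 bp at al. The median distance from a weak region on the arms to the nearest conservative summit was 7232.5 bp, from 1286 to 160701 bp.

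The signal is the value that the authors deposited for each peak, and it carries no stated normalization. Values of different libraries are therefore given side by side, and the libraries are not ranked by level. Means over the weak summits of a region mix libraries and serve only to order and describe the regions. Among the weak summits of the regions it ran from 5.43 to 57 in replicate 1 (median 29.4), from 7.53 to 49.7 in replicate 2 (median 30.1) and from 2.02 to 52.7 in replicate 3 (median 31.5). The medians of all ranked peaks were 10.6, 10.2 and 10.8, and those of the thresholded peaks 53.3, 52.6 and 56.3. The typical weak summit thus lay above the typical ranked peak and below the typical thresholded one. In 48 of the 64 regions both weak signals were above 20, and in 5 regions 1 of them was below 10. The lowest was a summit at Mst87F, with 2.02 in replicate 3 and 17.8 in replicate 1. The highest mean was at Kdm2, which encodes a histone demethylase, with 57 in replicate 1 and 48.1 in replicate 3. At Ten-a, which encodes a teneurin cell adhesion protein, replicates 2 and 3 gave 49.7 and 52.7.

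**Figure D1:**
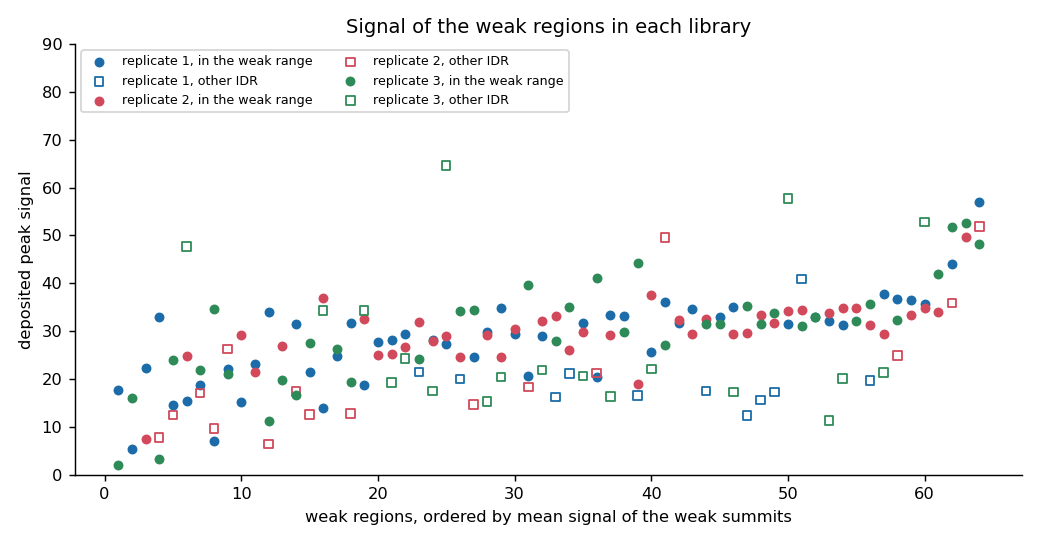
The deposited peak signal (vertical axis) of the 64 weak regions, ordered along the horizontal axis by the mean signal of the weak summits; filled circles are summits in the IDR range and open squares are peaks of the remaining library at another IDR. Most circles lie between 20 and 40, while several squares of replicate 3 lie above 45.

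The limits of the IDR range were set by the rule, and regions also lay outside them. The members nearest the looser limit were at CrebB, which encodes a cAMP response element binding protein, with a mean −log10 IDR of 1.35, and at chic, the gene of the actin-binding protein profilin, with 1.36. The nearest regions outside it were at CG1146 (1.22) and CtBP (1.21). At the stricter limit, the members were at Mau2 (1.93) and CG12362 (1.92), and the nearest regions outside it at Ubi-p63E (2.11) and Hnf4 (2.14). The mean signal was 30.8 at CrebB and 26.3 at chic, against 23.9 at CG1146 and 24.3 at CtBP just outside. At the stricter limit it was 32.0 at Mau2 and 31.5 at CG12362, against 32.0 at Ubi-p63E and 34.8 at Hnf4.

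The rule did not require a peak of the third library, but it did constrain one: a peak of that library in the IDR range would have made a region of 3 libraries, and one strong enough for the conservative list would have removed the region. The presence of its ranked summit at any IDR was compared with the flank. At 46 of the 64 weak regions (71.9%) the library that had no weak summit there had a ranked peak summit within 100 bp of the centre. A flank position, 1000 bp away on a randomly drawn side, had one at 23 (35.9%). There were 28 regions with a summit at the centre alone and 5 with one in the flank alone (exact two-sided sign test, p = 6.62e-05). The difference was 59.4 percentage points with a flank at 2000 bp, where 12.5% of positions had a summit. For weak regions of 1 library, the share with a ranked summit in another library ran from 46.3% to 62.2% over the 6 ordered pairs of libraries, and from 14.5% to 21.5% in the flank. The regions are not independent replicates, since they come from the same 3 libraries, and per the deposited notes 1 control file served all libraries. These p-values therefore describe regions in these libraries. Among the 28 regions that also lay over 1000 bp from every thresholded summit of any list, the shares were 60.7% and 39.3%, and the test did not pass (exact sign test, p = 0.180).

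The IDR and signal of the third library's peaks partly restate that choice and are a description. The IDR was between 0.2 and 0.5 at 18 regions, over 0.5 at 17, between 0.05 and 0.2 at 3, and 0.01 or less at 8. The remaining 18 regions had no ranked summit of the third library. Its signal was a median of 19.9, from 6.42 to 64.6, and its median percentile among all ranked peaks of its library was 87.0.

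The 8 regions with an IDR of 0.01 or less in the third library were a pair at crp, a gene of a basic helix-loop-helix protein, and 1 each at ssp3, isoQC, CG1965, Kdm2, the trithorax group gene trx and the unplaced sequence. The regions at crp gave 15.4, 24.9 and 47.7, and 27.2, 29.0 and 64.6, in replicates 1, 2 and 3. At trx the values were 36.2, 49.5 and 27.1. At isoQC, the gene of a glutaminyl cyclase, they were 35.7, 34.8 and 52.8. The library of low IDR, which picked these regions, was replicate 3 at crp and isoQC and replicate 2 at trx. The core was found in 0 of the 7 on the arms and in 16 of the other 56. These 7 regions are few and were picked after their values were seen, and the difference was not tested. Only the region at CG1965 lay within 100 bp of a summit of a library's thresholded list, and none of the 8 was in the longest joint list. The ranked lists held 2857, 1760 and 3121 peaks with an IDR of 0.01 or less, against 2754, 1683 and 3013 peaks in the thresholded lists, so some such peaks are missing from the latter. Why they are missing was not tested. Without these 8 regions, the third library had a summit at 67.9% of centres and 37.5% of flanks. All 8 had a summit at the centre by the way they were picked, so these shares are a description.

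**Figure D2:**
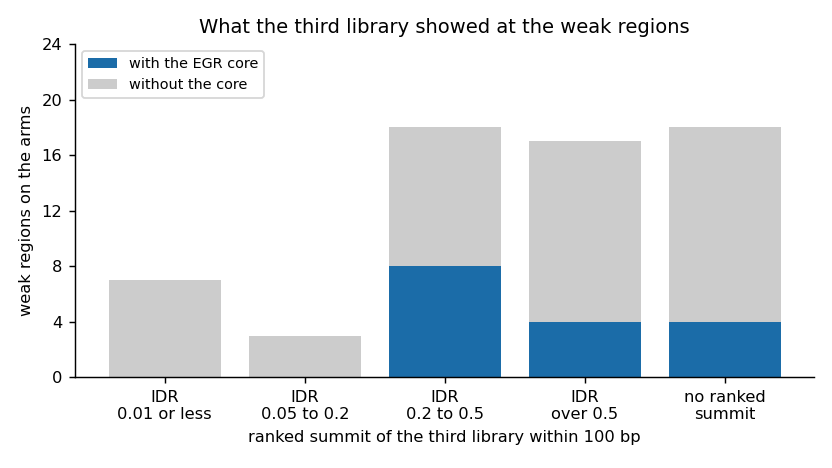
The number of weak regions on the arms (vertical axis) by the IDR of the third library's ranked summit within 100 bp (horizontal axis), split by presence of the EGR core. The core was found in 0 of the 7 regions with an IDR of 0.01 or less and in 8 of the 18 with an IDR of 0.2 to 0.5. It was in 4 of the 17 with an IDR over 0.5. The classes are small, and differences between them were not tested.

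The longest joint list of the authors, also thresholded on the IDR, held a summit within 100 bp of 32 of the 64 weak regions (50%). Of those 32, 11 had the core, and of the 31 regions on the arms that were not in it, 5 had it. This list was made from the same libraries, so it is no independent measurement.

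The EGR core was the sequence feature of interest. It was found at 16 of 63 centres (25.4%, 95% Wilson interval 16.3 to 37.3) and in 5 of 63 flanks 1000 bp away (7.94%, 3.44 to 17.3). The centre alone held a core in 14 regions, and the flank alone in 3. The exact two-sided sign test gave p = 0.0127, and p = 0.153 after Benjamini-Hochberg adjustment over 16 motifs, so the difference did not pass at 0.05. It passed in windows of 50 bp on each side, with 22.2% against 3.17% (adjusted p = 0.0293 by the same exact test), and against a flank at 2000 bp, with 25.4% against 3.17% (adjusted p = 0.0083). With the IDR range opened to about 0.2, 589 regions were found, and 27.6% of those on the arms held the core against 9.09% of flanks (adjusted p = 4.16e-15 by the exact sign test). The call on the core thus changed with the window, the flank and the IDR range, which also sets the number of regions.

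The share of weak regions with the core lay below that of conservative regions, and the difference did not pass the test. Of the 4014 conservative regions, 37.8% held it, against 25.4% (Fisher's exact test, two-sided, p = 0.0489, adjusted over 5 planned share comparisons p = 0.122). Against conservative summits found in all 3 thresholded lists the difference was 23.9 points and passed (adjusted Fisher's exact p = 0.00118). Of the 1671 weak regions of 1 library, 22.1% held the core (adjusted Fisher's exact p = 0.620). An agreement of 2 libraries therefore went with a share 3.25 points higher than that of 1 library, which this number of regions could not tell from none. Weak regions of 2 or 3 libraries within 1000 bp of a conservative summit, which can share its place, held the core in 37.0%. The planned comparison of 3 with 2 libraries could not be made, since no weak region had 3. In the wider IDR range, 12 of 29 regions of 3 libraries (41.4%) and 149 of 554 of 2 libraries (26.9%) held the core (Fisher's exact test, unadjusted p = 0.0928).

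**Figure D3:**
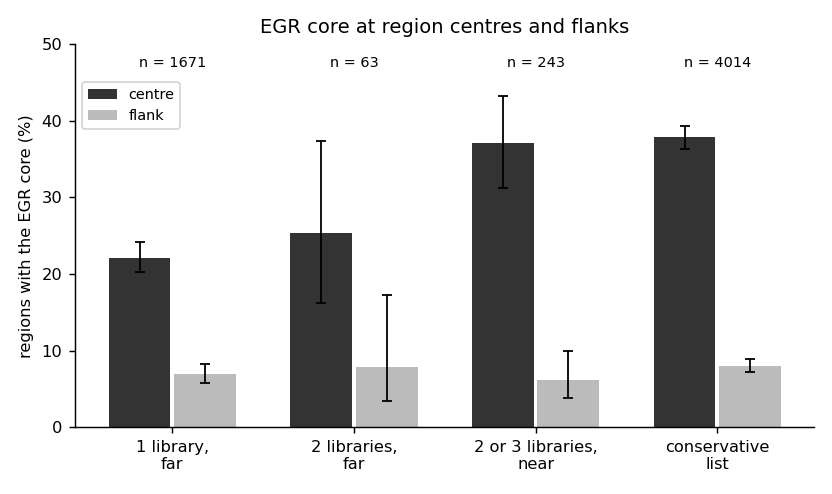
Percent of regions with the EGR core within 100 bp of the centre (dark bars) or of a position 1000 bp away (light bars), with 95% Wilson intervals, for weak regions of 1 library, of 2 libraries, of several libraries near the conservative list, and for conservative regions. The centre share of the 2-library regions, 25.4%, lies between 22.1% for 1 library and 37.8% for the conservative list, and its interval includes the former.

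The cores that were found lay close to the summits. The distance from the region centre to the nearest core was a median of 15.5 bp, from 2 bp at tmod to 69 bp at fz, and 14 of 16 were within 50 bp. In conservative regions the median was 19 bp, and in weak regions of 1 library it was 29 bp. These distances are not measured alike, since the centre of a 2-library region averages 2 summits. The search also ended at 100 bp from the centre. In bins of 50 bp, the bin at the centre held a core in 17.5% of the weak regions. A bin 200 bp to one side held 7.94%, which is 5 regions, and every other bin within 500 bp held 4.76% or less. GTGGGCG was the nearest form in 8 regions and GTGGGTG in 8. Its share of 50% compared with 56.6% in conservative regions (adjusted Fisher's exact p = 0.620).

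**Figure D4:**
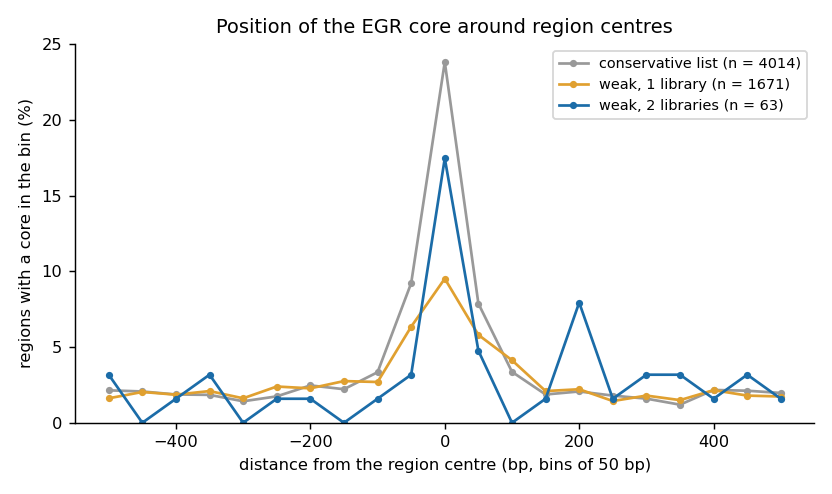
Percent of regions with an EGR core (vertical axis) in bins of 50 bp by distance from the region centre (horizontal axis), for conservative regions, weak regions of 1 library and weak regions of 2 libraries. All 3 lines are highest at the centre, at 17.5% for the 63 weak regions of 2 libraries.

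Over single peaks rather than merged regions, the mean share with the core was higher in lists of lower IDR down to 0.02. Among ranked peaks more than 1000 bp from the conservative list, it was 11.4% ± 0.160 (SD, n = 3 libraries) at an IDR of 0.5 to 1, 15.3% ± 0.892 at 0.2 to 0.5 and 20.2% ± 1.17 at 0.05 to 0.1. In the range used here it was 23.0% ± 4.40 at 0.02 to 0.05 and 22.7% ± 3.02 at 0.01 to 0.02, and it was 28.6% ± 6.20 at 0.01 or less. Flanks held the core in 6.30% to 7.66%. Within the libraries, the share at 0.01 or less was above that at 0.01 to 0.02 in all 3, by little in replicate 1 (26.4% and 26.2%), and more in replicate 2 (35.6% and 21.0%) and replicate 3 (23.8% and 21.1%). From 0.02 to 0.05 to the next class it was higher in replicates 1 and 3 and lower in replicate 2.

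**Figure D5:**
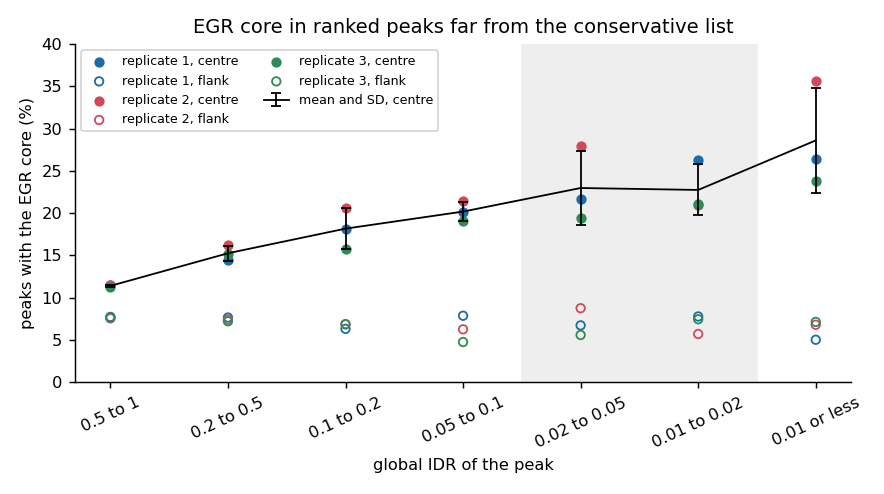
Percent of ranked peaks far from the conservative list with the EGR core (filled points) or with a core 1000 bp away (open points), for each library, by class of global IDR; the line gives the mean and SD of the 3 libraries and the grey band marks the range used for the weak regions. The mean goes from 11.4% in the loosest class to 28.6% in the strictest, while flanks stay between 4.7% and 8.8%.

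Most of the weak regions lay in introns and promoters, and their cores mostly outside promoters. The weak regions lay in introns in 29 cases, in promoters (within 500 bp of a TSS of a protein-coding gene) in 21, in intergenic sequence in 6, in coding exons in 5 and in other exons in 2. Promoters made up 33.3%, against 37.8% of conservative regions (adjusted Fisher's exact p = 0.620). Only 1 of the 21 promoter regions held the core (4.76%), the one at mfas, whereas 15 of the other 42 did (35.7%). That difference was 31.0 points (Fisher's exact test, two-sided, p = 0.0121, adjusted p = 0.0604) and did not pass at 0.05. It passed with promoters of 250 bp, where none of them held the core and 35.6% of the others did (adjusted Fisher's exact p = 0.0143). In conservative regions the core was in 26.8% of promoters and 44.6% of other regions. The shares were 13.8% and 25.9% in weak regions of 1 library. In weak regions of 2 or 3 libraries near the conservative list they were 18.6% and 47.1%. A lower share in promoters is thus not particular to the weak regions of 2 libraries. Of the 21 promoter regions, 16 were centred within 100 bp of the TSS, among them those of chic, Nhe3, Hsp26, wun2, Plod, Mau2, Exn and Ten-a.

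No motif of the panel passed. The 16 motifs included sites of GAGA factor, of the promoter factors M1BP and DREF (motif DRE), of the muscle regulator Mef2, of GATA factors and of Scalloped, and Sp and KLF sites (GGGCGGG or GGGTGGG), which can overlap the core in part. By the exact sign test with adjustment, 0 of 16 passed, and 2 had an unadjusted p under 0.05, the core and the E-box CANNTG. The E-box, bound by basic helix-loop-helix factors, was in 79.4% of centres and 58.7% of flanks (exact sign test, p = 0.0192, adjusted p = 0.153). The GAGA factor word GAGAG was in 27.0% of both. Of all 7-mers, each counted with its reverse complement, 0 were more common at centres by the same test (0% called), and 33 had an unadjusted p under 0.05. Among the 42 arrangements of the letters of GTGGGCG, each counted on both strands, GTGGGCG itself was in the most weak regions, 8. The next, GCGTGGG and TGGGCGG, were in 6 each, and the median was 2. Those next words can overlap GTGGGCG in a longer stretch, so they are no independent comparison. The median GC content was 48.3% in the window of 100 bp on each side of the centre and 41.3% in the flank, and the part of GC content in the motif counts was not tested.

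The core-bearing regions are described with the genes beside them, and the grouping of these genes was made after they were seen and had no test. Over all genes, 0.466% had a weak region in the gene or just upstream. Among the lists used, it was 1 of 22 integrin adhesion genes (if), 1 of 28 somatic muscle genes (tmod) and 1 of 24 muscle transcription factor genes (Dr). It was also 1 of 17 EGR and related zinc finger genes (luna), 1 of 14 segment border signalling genes (fz) and 1 of 14 tendon genes (shot). No gene of the other lists had one. With 1 gene per list, the counts give no theme. The region in if, which encodes the αPS2 integrin subunit of muscle attachment sites, lay in an intron 12419 bp from the TSS, at 1638 bp from a conservative summit. It gave 33.5 in replicate 2, 31.5 in replicate 3 and 15.7 in replicate 1. The region in tmod, the gene of tropomodulin, which caps actin filaments in muscle, gave 22, 26.3 and 21.0 in replicates 1, 2 and 3. Its weak summits were those of replicates 1 and 3. The region at Dr, a homeobox gene of muscle and neural patterning, was in a coding exon with the core 3 bp from its centre, and replicates 1, 2 and 3 gave 17.3, 31.8 and 33.8. At Obsc, which encodes the sarcomere protein obscurin, the core was 4 bp from the centre, and the signals were 34.8, 24.7 and 20.4. The region in Fim, the gene of the actin bundling protein fimbrin, gave 32.2, 33.8 and 11.3. The weak summits were those of replicates 2 and 3 at if and Dr and of replicates 1 and 2 at Obsc and Fim, so which library lay outside the range there was fixed by the choice. Obsc and Fim are in none of the lists.

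The regions beside Delta, fz, ths and luna, likewise named after their values were seen, belong to no common list. The region in an intron of Delta, which encodes a Notch ligand, gave 34.7 in replicate 1 and 29.4 in replicate 2, with no ranked summit in replicate 3. The gene fz, which encodes a Wnt receptor of planar polarity, held a pair of weak regions in its body. The one with the core gave 32.9 in replicate 1 but 7.77 and 3.36 in replicates 2 and 3. The other, without the core, gave 24.5, 14.7 and 34.4. Both regions of fz had their weak summits in replicates 1 and 3. The region nearest ths, which encodes an FGF ligand for muscle precursors, lay upstream, at −18105 bp from the TSS, and had no core. Its signals were 20.7, 18.3 and 39.6. In luna, the gene of a KLF-type zinc finger factor, the core was 64 bp from the centre and the signals were 24.8 in replicate 1 and 26.3 in replicate 3, with no ranked summit in replicate 2.

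The other core-bearing regions had varied neighbours. They were nearest Rh5 (a rhodopsin), lace (a subunit of serine palmitoyltransferase), Glut3 (a glucose transporter), Rich, CG12362, Or65c, mfas and CG14322. At Rh5 the signals were 32.9 and 31.5 in replicates 1 and 3, and replicate 2 had no ranked summit. At mfas, which encodes a fasciclin-domain adhesion protein, they were 21.5, 31.8 and 24.2. The region nearest the odorant receptor gene Or65c lay in a coding exon of CG13300, and the region nearest Rich in an intron of olf413, 56686 bp from the TSS, so the nearest TSS is a label there.

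Of the 14 tendon genes listed, 0 had a weak region within 1000 bp of a TSS, while 11 had a conservative region there. Over all genes 0.265% had such a weak region, so a count of 0 in 14 shows no difference from the background. The only tendon gene with a weak region in its body was shot, which encodes a spectraplakin that links microtubules to actin in tendon cells. This is 1 of 14 genes, against 0.466% of all genes. A count of 1 gene depends on gene length and was not tested. The region lay 1286 bp from a conservative summit, the smallest distance among the weak regions on the arms. That region gave 15.2 in replicate 1 and 29.3 in replicate 2, with no ranked summit in replicate 3 and no core. No weak region lay within 20000 bp of sr, where there were 17 conservative regions and 3 weak regions of 1 library. The nearest was 296265 bp away. Since the rule keeps regions away from conservative summits, places dense in those are closed to the weak regions.

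Few genes had a weak region at a TSS. Of 13945 protein-coding genes on the arms, 37 had one within 1000 bp (0.265%). Among these genes, 6 (16.2%) also had a conservative region there, against 15.2% of all genes. The rule kept weak regions over 1000 bp from conservative summits, which limits this overlap, so the shares are a description. Counting a weak region anywhere in the gene body or its first 1000 bp upstream, there were 65 genes (0.466%), and crp and fz held 2 each and every other gene 1. Dr was the only gene of the 18 lists, which cover muscle, tendon, adhesion, EGF and FGF signalling, epidermis, nerve and ribosomal proteins, with a weak region within 1000 bp of a TSS. For 0 of the 23 matched EGF receptor pathway genes, 0 of the 28 somatic muscle genes and 0 of the 93 cytoplasmic ribosomal protein genes was there such a region, while a conservative region was there for 9, 15 and 59. At 0.265% of all genes, a count of 0 in lists of this size is close to the background. The TSS nearest to each weak region belonged to 62 genes, of which 30 (48.4%) were also the nearest gene of a conservative region. Among all 13945 genes, 2343 (16.8%) were. That is no matched background, since a gene far from other TSSs is nearest to more positions. Distance to the conservative list was also part of the rule, and the difference was not tested.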

How the data were processed

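ChIP-seq peak lists of 3 libraries on dm6 were used. Per library there is a ranked and a thresholded list, and there are joint lists of all libraries. Peak signal was deposited by the authors with no stated normalization, and the −log10 of the global IDR was deposited by the authors in the ranked lists. The aligner is not given in the sources used here, nor is the peak caller. Read totals are not in these files, so depth is unknown; the number of regions limits precision, and intervals cover counting error only.

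Regions were built, annotated with Ensembl release 115 and searched on the dm6 sequence of RefSeq in Python 3.11.15 with scipy 1.17.1. Windows of 100 bp on each side of centres and flanks were compared by exact sign tests and shares by Fisher's exact tests, two-sided, with Benjamini-Hochberg adjustment; the code was tested on simulated data.

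The members, gene lists, motifs and tests were chosen with earlier results of these data known. Genes were named by rule: regions within 20000 bp of sr, the 10 strongest regions of 3 libraries with the core and 4 without it, the 10 genes with the most regions, listed genes with a region at a TSS, and regions at the IDR limits. No region had 3 libraries, so intronic or intergenic regions of 2 libraries, outside 2R and without UTR in the printed window were used instead, a choice made after the data were seen. The core-bearing regions, those with a low IDR in the third library and listed genes with a region in the body were also named after their values were seen. Of genes with 1 region each, which tie, none was named by the count rule.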

Additional observations from a re-analysis of the deposited data

How the results depend on the processing

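Over the settings tried, 119 of 160 recomputed values kept their direction and side of 0.05, or stayed within 1.5 times of a count. The left or right flank for every region, the regions without an IDR of 0.01 or less in the third library and all settings for the 7-mers were chosen after seeing the data. With 3 libraries needed there were 0 regions and no other value. The number of regions was 12 in a stricter range (IDR of 0.0224 or less), 589 in a wider one (−log10 IDR from 0.7), and 28 away from every thresholded summit; leaving out a replicate gave 15 to 27. Genes near a TSS numbered 8, 336 and 14 under those settings, 8 to 17 without a replicate, 65 by gene body and 62 by nearest TSS. From 0.7, 5 motifs and 14 7-mers passed. The core difference from the flank became a call from 0.7 (18.5 points), with a 50-bp window (19.0) and with a 2000-bp flank (22.2). The cause was not tested, and the setting from 0.7 changed the IDR range together with the number of regions. The core share minus that of conservative regions was a call with summits widened by 200 bp (-13.5 points), from 0.7 (-10.2), with a 150-bp window (-14.6) and against summits of all 3 thresholded lists (-23.9), and ran from -19.3 to 2.16 without a replicate. Against regions of 1 library it was -4.59 in the stricter range, 9.61 and a call from 0.7, -1.09 away from thresholded summits and -0.64 with a 150-bp window. Without a replicate it ran from -5.68 to 18.6. The core outside minus inside promoters was a call with widening by 200 bp (32.3), from 0.7 (17.2), over 2000 bp from conservative summits (35.2), with a 150-bp window (31.0) and with 250-bp promoters (35.6). The promoter share difference was 7.66 in the stricter range and -5.55, a call, from 0.7. The GTGGGCG difference ran from -16.6 to 3.38 without a replicate. The third-library difference was no call in the stricter range (8.33 points) or away from thresholded summits (21.4), where fewer regions were tested; without a replicate it ran from 31.8 to 40.7, and without replicate 1, with 15 regions, it was no call.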
